A study of Rattus norvegicus with 12 samples.

Results

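The BCL-2 family decides whether the outer membrane of the mitochondrion stays closed or is opened during apoptosis, and 10 of its genes were followed here through an embolic stroke and its treatment in the rat cortex. They were taken as the rows of the deposited count matrix whose symbol is Bcl2a1, Bcl2l1, Bcl2l2, Mcl1, Bax, Bak1, Bid, Bcl2l11, Bbc3 or Pmaip1, and 10 of 10 were found among 17268 genes. The rats were adult male Sprague Dawley animals without any genetic change, and RNA of the cerebral cortex was sequenced in 12 libraries, 3 for each of 4 groups. Sham rats went through the neck surgery and received no clot. Model rats had a clot from a donor rat infused at the origin of the middle cerebral artery and received no treatment afterwards. The rt-PA rats had the clot and then recombinant tissue type plasminogen activator, a clot-dissolving enzyme, into the tail vein at 6 h, which is later than the usual limit for this drug. The rt-PA+Acu rats had the clot, acupuncture at the points GV26 and PC6 at 2 h and rt-PA at 6 h. All groups other than Sham therefore carried a clot, and no libraries of acupuncture without rt-PA were analysed here, so that rt-PA+Acu against rt-PA concerns acupuncture on top of the drug. The hour at which the cortex was taken for sequencing is not given in the sources used here, and neither the labels nor the methods state that each library is 1 rat, so p-values measure only the spread between these libraries, which may be technical.

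Proteins of this family fall into groups that act against each other. Anti-apoptotic proteins such as BCL-xL (Bcl2l1), BCL-W (Bcl2l2), MCL-1 (Mcl1) and BFL-1/A1 (Bcl2a1) hold their pro-apoptotic relatives in check. BAX and BAK (Bax and Bak1) are the effectors that assemble into pores and let cytochrome c out, after which APAF1 and the caspases dismantle the cell. BH3-only proteins such as BID (Bid), BIM (Bcl2l11), PUMA (Bbc3) and NOXA (Pmaip1) sense stress and either block the anti-apoptotic proteins or switch on the effectors. In the brain, death by this route is known from neurons and endothelial cells after ischemia, while BFL-1/A1 is best known from leukocytes and is a classical target gene of NF-kappaB. These are statements about proteins, whereas the values reported here are mRNA levels of whole cortex, and in such bulk RNA fewer cells of a type and less RNA per cell cannot be told apart.

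The promoters of Bcl2a1, Bid and Pmaip1 are shown because these members had the largest fold changes in the Model group. Each line holds the RefSeq sequence of assembly GRCr8 from 250 bases before to 50 bases after the annotated start of transcription, on the strand of the gene. It is chr8:98596556-98596855 on the plus strand for Bcl2a1, chr4:155808270-155808569 on the minus strand for Bid and chr18:62255720-62256019 on the plus strand for Pmaip1. Capitals mark matches on either strand to TGANTCA (the AP-1 site), ACGTCA (a cAMP response element half-site) and GGG and CC with 5 bases between them (a loose NF-kappaB pattern), which were chosen after the sequences had been seen.
Bcl2a1: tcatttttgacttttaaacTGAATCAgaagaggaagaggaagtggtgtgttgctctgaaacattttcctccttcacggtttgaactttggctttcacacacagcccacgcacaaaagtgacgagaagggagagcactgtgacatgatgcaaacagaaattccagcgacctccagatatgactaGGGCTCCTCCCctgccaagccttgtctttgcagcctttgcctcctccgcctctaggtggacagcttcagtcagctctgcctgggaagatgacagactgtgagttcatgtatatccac
Bid: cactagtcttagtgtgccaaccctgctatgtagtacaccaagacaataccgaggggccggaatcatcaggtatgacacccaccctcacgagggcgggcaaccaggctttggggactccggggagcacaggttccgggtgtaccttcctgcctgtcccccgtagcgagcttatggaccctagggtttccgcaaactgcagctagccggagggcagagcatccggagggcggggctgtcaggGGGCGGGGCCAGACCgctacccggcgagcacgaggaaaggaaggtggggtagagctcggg
Pmaip1: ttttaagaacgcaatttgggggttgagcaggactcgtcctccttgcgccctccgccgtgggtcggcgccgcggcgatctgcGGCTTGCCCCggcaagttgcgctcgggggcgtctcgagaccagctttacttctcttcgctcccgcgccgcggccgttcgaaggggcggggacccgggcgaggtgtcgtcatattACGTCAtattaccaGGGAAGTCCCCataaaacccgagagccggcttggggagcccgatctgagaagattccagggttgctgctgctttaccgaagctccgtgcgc
The only AP-1 match in these windows lay in Bcl2a1 at position -231, and the ACGTCA match of Pmaip1 lay at position -55. Among all 33469 promoters of the table, 7.33% held the AP-1 site, 7.94% held ACGTCA and 47.3% held the NF-kappaB pattern, which accounts for the other capitals (2 matches in Bcl2a1, 2 in Bid and 3 in Pmaip1, some overlapping). The p53 half-site was present in 7.98% of all promoters and in 0 of the 11 windows found for 8 of the 10 members (Bax and Bbc3 had no entry). A match of letters is a description of the sequence, and binding was not measured.

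The depth of the libraries was even, with 11678450 to 13616935 counts each. A count of 3 in a library stood for 0.208 to 0.262 CPM, that is counts per 1000000 counts of the library after scaling with edgeR's TMM factors. The 10 neuron marker genes of the cortex label were all detected, with a summed level of 5050 to 8998 CPM per library. Some libraries stood apart from their groups. Model replicate 3 had 142 counts of the ribosomal gene Rpl39 (chosen after its values were seen), like the 105 to 151 counts of Sham and unlike the 488 to 990 of the other 8 libraries. The rt-PA+Acu replicate 3 library had a neuron marker sum of 6194 CPM beside 8776 and 8998 CPM in replicates 1 and 2. Summed oligodendrocyte markers differed widely within groups, from 3464 to 22033 CPM in rt-PA+Acu and from 1862 to 9020 CPM in Model. Several results are therefore also given without Model replicate 3 or rt-PA+Acu replicate 3. The part of these differences in the results was not tested.

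The first comparison asked what the clot alone did to these genes. In Model against Sham, 5 of the 10 members rose, 1 fell and 4 did not pass the test. The members that rose were Bcl2a1 and Mcl1 on the anti-apoptotic side, the effector Bak1 and the BH3-only genes Bid and Pmaip1, so that both sides of the family were represented. Bcl2l2 was the member that fell. A gene was said to rise or fall at an adjusted p under 0.05 in edgeR's quasi-likelihood test, a threshold that 54.0% of all 12884 genes tested passed (27.3% higher and 26.6% lower in Model). Of the members, 4 also had a log2 fold change over 1 (Bcl2a1, Bak1, Bid and Pmaip1), as had 9.43% of all genes (21.5% in either direction). The libraries of 6 members did not overlap between the groups, which was so for 63.6% of all genes. The median log2 fold change of the members was 0.54 beside 0.01 for all genes. Without Model replicate 3 the same 5 members rose, and Bbc3 fell together with Bcl2l2. Calls over all genes also went up in that fit, from 6951 of 12884 to 7528 of 13070.

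**Figure D1:**
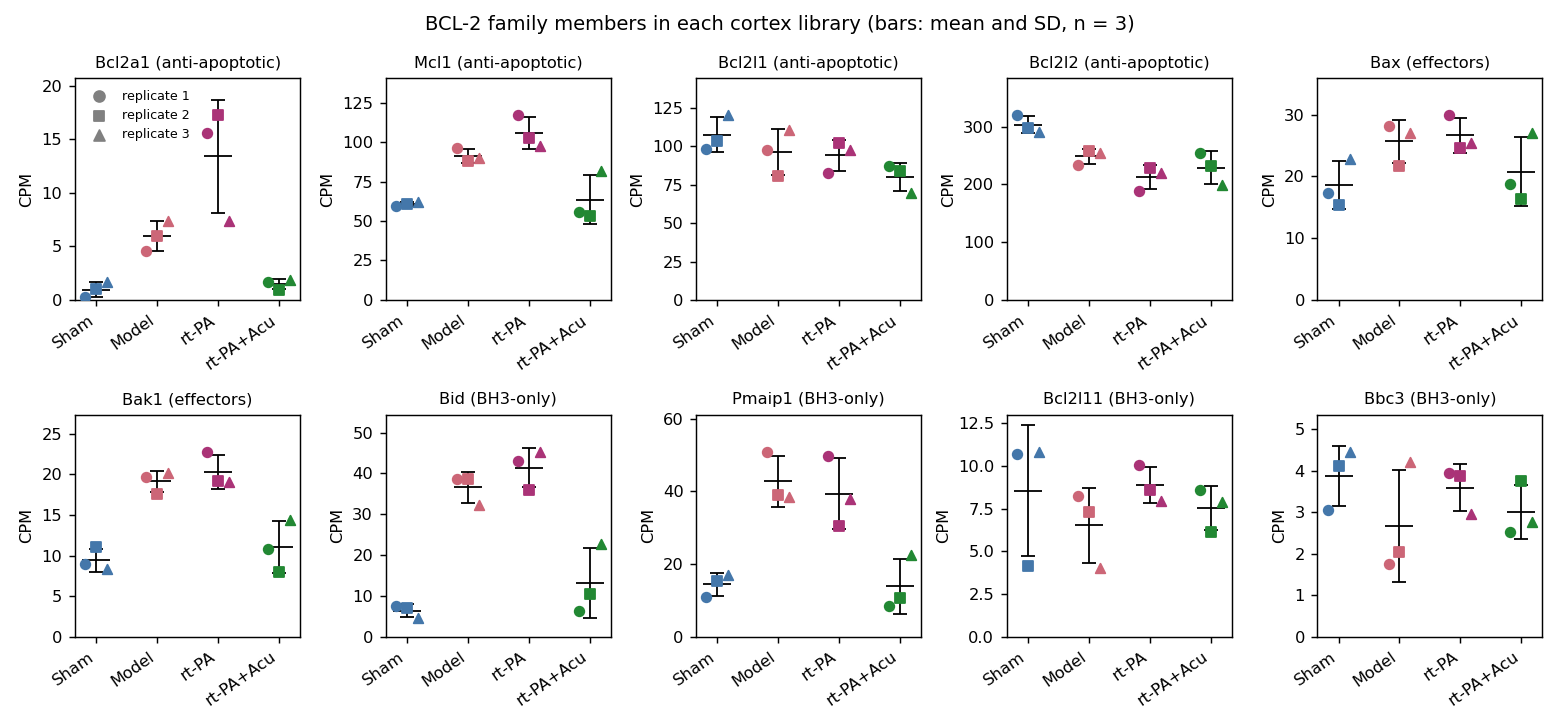
Level of each member in CPM (vertical axes, starting at 0) in the 12 cortex libraries by group, with the symbol shape for the replicate number and bars for the mean and SD of 3 libraries. The 3 Model and 3 rt-PA libraries of Bid, Pmaip1, Bak1 and Mcl1 lie above all Sham libraries, and the rt-PA+Acu libraries of these genes lie below all rt-PA libraries.

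Bcl2a1, whose protein protects activated leukocytes from death, was barely counted in Sham, with 3, 13 and 19 counts or 0.242, 0.994 and 1.66 CPM. Its level was 4.58, 5.93 and 7.35 CPM in Model, 15.6, 17.2 and 7.38 CPM in rt-PA, and 1.69, 0.960 and 1.87 CPM in rt-PA+Acu. Every Model library lay above every Sham library, every rt-PA library lay above every Model library (by a narrow margin for rt-PA replicate 3), and the rt-PA+Acu libraries overlapped with Sham. Bcl2a1 rose in Model with a log2 fold change of 2.63 ± 0.52 (SE, n = 3 per group, adjusted p = 0.00321 in edgeR's quasi-likelihood test), which only 3.60% of all genes exceeded in size. Because 1 Sham library was at the limit of 3 counts, the size of this change is uncertain, and it ranged from 2.17 without Sham replicate 1 to 3.23 without Sham replicate 3. The Sham libraries alone would not have brought the gene past the expression filter, so that it was tested through its level in Model. A minimum of 10 counts in every library left it untested here. The counts of members that rose and of those past both thresholds in Model vs Sham include it. Bcl2a1 was also among the genes that the study picked from these libraries, so that its values are no independent evidence.

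Mcl1 encodes a short-lived protein that holds BAK in check. Its level was 59.5, 60.6 and 61.8 CPM in Sham, 96.3, 87.7 and 89.6 CPM in Model, 117, 102 and 97.5 CPM in rt-PA, and 55.5, 53.4 and 81.6 CPM in rt-PA+Acu. The Sham libraries lay close together (SD 1.14 CPM), and Model and rt-PA stood clear of them. Mcl1 rose by 0.60 ± 0.08 on the log2 scale in Model (SE, n = 3 per group, edgeR adjusted p = 0.000586), a smaller change than that of Bcl2a1 but the more precise one.

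Bcl2l1 and Bcl2l2, known for the survival of neurons, did not rise. Bcl2l1 was at 98.3, 104 and 120.1 CPM in Sham, 97.7, 80.3 and 111 CPM in Model, 82.6, 102 and 97.6 CPM in rt-PA, and 87.1, 83.8 and 69.6 CPM in rt-PA+Acu. Sham, Model and rt-PA overlapped, and the log2 fold change in Model was -0.15 with a 95% interval from -0.46 to 0.15 (edgeR adjusted p = 0.363). Bcl2l2 was at 319.5, 298 and 292 CPM in Sham, 233, 258 and 254 CPM in Model, 189, 228 and 219.8 CPM in rt-PA, and 255, 232 and 199 CPM in rt-PA+Acu. All Sham libraries lay above all others of this gene. Bcl2l2 fell by 0.28 on the log2 scale in Model (SE 0.08, n = 3 per group, edgeR adjusted p = 0.0193). That call was lost without Sham replicate 1 (edgeR adjusted p = 0.0694), without Model replicate 1 (0.0585) and with scaling by library size alone (0.0647).

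The effectors both lay higher in Model, and Bak1 passed the test. Bak1 was at 8.94, 11.0 and 8.29 CPM in Sham, 19.6, 17.6 and 20.2 CPM in Model, 22.8, 19.2 and 19.0 CPM in rt-PA, and 10.8, 8.03 and 14.3 CPM in rt-PA+Acu. The Model and rt-PA libraries were separate from the other 6 libraries. Its log2 fold change in Model was 1.03 ± 0.16 (SE, n = 3 per group, edgeR adjusted p = 0.00108), and it passed the test without any 1 library but lay just under 1 without Sham replicate 1 (0.98), Sham replicate 3 (0.94) or Model replicate 3 (0.99). For Bax the levels were 17.4, 15.4 and 22.9 CPM in Sham, 28.2, 21.8 and 27.1 CPM in Model, 29.9, 24.6 and 25.4 CPM in rt-PA, and 18.8, 16.4 and 27.1 CPM in rt-PA+Acu. Sham replicate 3 lay above Model replicate 2, so that these groups overlapped. The log2 fold change of Bax was 0.48 ± 0.18 (SE, n = 3 per group, edgeR adjusted p = 0.0532), close to the threshold. It passed without Sham replicate 3 (0.65, adjusted p = 0.0220), without Model replicate 2 (0.59, adjusted p = 0.0436), and with library size alone (0.55, adjusted p = 0.0299).

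The BH3-only genes were divided. Bid, whose protein links caspase-8 to the mitochondrion, was at 7.57, 6.96 and 4.63 CPM in Sham, 38.7, 38.7 and 32.2 CPM in Model, 43.0, 35.9 and 45.2 CPM in rt-PA, and 6.32, 10.5 and 22.7 CPM in rt-PA+Acu. No Model or rt-PA library came near any Sham library, and rt-PA+Acu replicate 3 stood between these levels. Bid rose in Model with a log2 fold change of 2.52 ± 0.20 (SE, n = 3 per group, edgeR adjusted p = 4.07e-05), the smallest p of any member, and 4.04% of all genes had a larger change. Pmaip1, a p53 and stress response target whose protein neutralises MCL-1, was at 10.9, 15.4 and 16.9 CPM in Sham, 50.8, 39.1 and 38.4 CPM in Model, 49.8, 30.4 and 38.0 CPM in rt-PA, and 8.51, 10.6 and 22.5 CPM in rt-PA+Acu. Its pattern over the groups was like that of Bid, again with rt-PA+Acu replicate 3 above the other libraries of its group. Pmaip1 rose in Model with a log2 fold change of 1.58 ± 0.19 (SE, n = 3 per group, edgeR adjusted p = 0.00029).

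The other BH3-only genes did not pass the test in any comparison. Bcl2l11, a target of FOXO factors, was at 10.7, 4.13 and 10.8 CPM in Sham, 8.24, 7.28 and 4.05 CPM in Model, 10.1, 8.62 and 7.97 CPM in rt-PA, and 8.60, 6.11 and 7.91 CPM in rt-PA+Acu. Bbc3, a p53 target, was at 3.06, 4.13 and 4.45 CPM in Sham, 1.76, 2.03 and 4.21 CPM in Model, 3.95, 3.88 and 2.95 CPM in rt-PA, and 2.53, 3.75 and 2.76 CPM in rt-PA+Acu. They had 23 to 145 counts per library, and Model overlapped with Sham for both. In Model the log2 fold change was -0.38 for Bcl2l11 (95% interval -1.30 to 0.55) and -0.54 for Bbc3 (95% interval -1.41 to 0.34). These intervals include changes of more than 1 on the log2 scale, so that these libraries do not settle whether a fall of that size occurred. Bbc3 depended on Model replicate 3, which had 51 counts beside 23 and 24 in the other Model libraries. Without that library its log2 fold change was -1.02 (edgeR adjusted p = 0.0300).

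**Figure D2:**
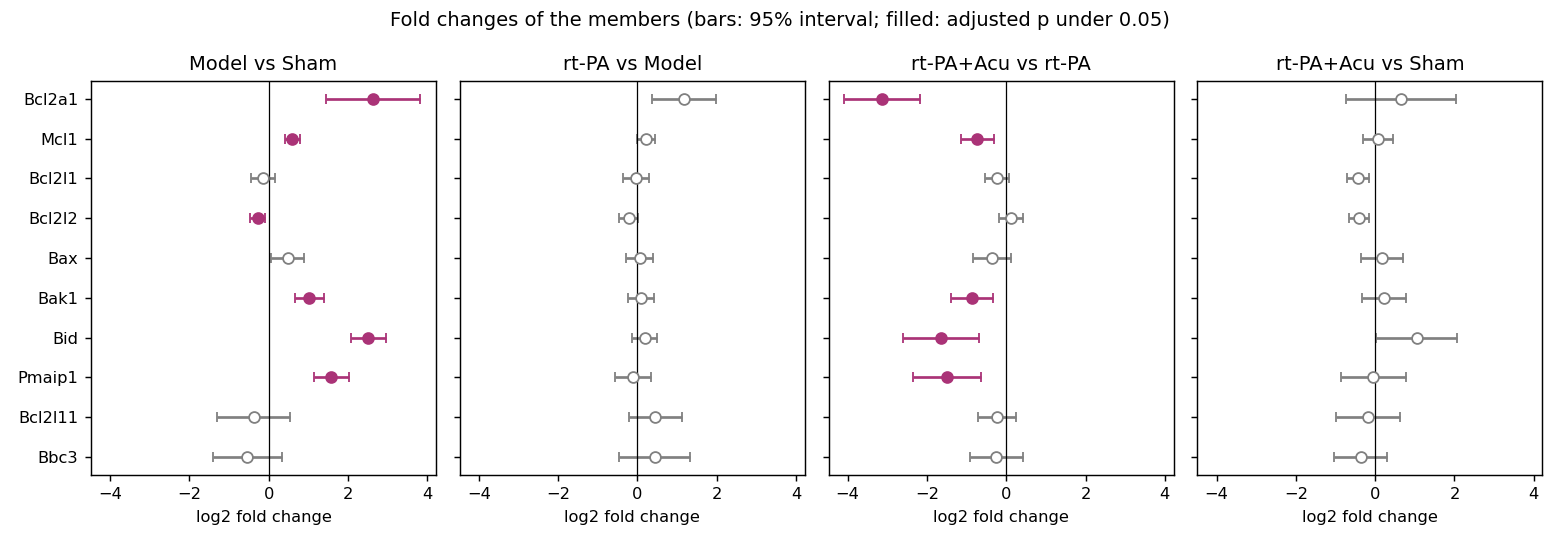
Log2 fold change of each member (horizontal axes) in the 4 comparisons, with 95% intervals from edgeR's quasi-likelihood fit, filled where the adjusted p was under 0.05. In Model vs Sham 6 members are filled, in rt-PA+Acu vs rt-PA there are 5, which all lie to the left of 0, and in the other comparisons 0.

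The next comparison asked what late rt-PA added to the clot. In rt-PA against Model, 0 of the 10 members and 0 of 12941 genes passed the adjusted p in edgeR's quasi-likelihood test. At an unadjusted p under 0.05 there were 1284 genes (9.92%), 1 of them a member, and DESeq2 called 164 genes (1.14%), none of them a member. The 1 member was Bcl2a1, with a log2 fold change of 1.17 ± 0.35 (SE, n = 3 per group, edgeR adjusted p = 0.374, and from 0.0704 with DESeq2 to 0.689 over the alternatives). Its libraries did not overlap between the groups. The same was true of Mcl1, with a log2 fold change of 0.21 (95% interval -0.02 to 0.45), and of Bcl2l2, which lay lower with -0.23 (95% interval -0.47 to 0.01). Separation of this kind was found upwards for 7.85% and downwards for 8.06% of all genes.

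For the death-promoting members the rt-PA values lay near those of Model. The log2 fold change was 0.05 for Bax (95% interval -0.29 to 0.40), 0.09 for Bak1 (-0.23 to 0.41), 0.18 for Bid (-0.13 to 0.49) and -0.12 for Pmaip1 (-0.58 to 0.34). For these genes the intervals exclude a change of 1 on the log2 scale in either direction. Those of Bcl2l11 (0.45, from -0.22 to 1.11) and Bbc3 (0.43, from -0.46 to 1.33) do not. The signs of Bcl2l1, Bax, Bak1 and Pmaip1 in this comparison turned when single libraries were left out, and no direction is given for them.

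The comparison of rt-PA+Acu with rt-PA asked what acupuncture at 2 h changed in rats that received the late drug. Here 5 of the 10 members fell and 0 rose, where 17.7% of 12999 genes fell and 17.0% rose (34.8% in either direction). The 5 were Bcl2a1, Mcl1, Bak1, Bid and Pmaip1, the same members that rose in Model. A log2 fold change below -1 was reached by 3 of them (Bcl2a1, Bid and Pmaip1), as it was by 8.16% of all genes. The median over the members was -0.54, while that of all genes was within 0.01 of 0.

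Bcl2a1 fell by 3.14 on the log2 scale (SE 0.41, n = 3 per group, edgeR adjusted p = 0.00241), and 1.42% of all genes had a larger change. Mcl1 fell by 0.73 (SE 0.18, edgeR adjusted p = 0.0191), so that both anti-apoptotic transcripts that had risen after the clot were lower with acupuncture. On the opposite side, Bid fell by 1.64 on the log2 scale (SE 0.41, edgeR adjusted p = 0.0195), Pmaip1 had a log2 fold change of -1.50 (SE 0.37, edgeR adjusted p = 0.0189) and Bak1 fell by 0.87 (SE 0.23, edgeR adjusted p = 0.0226). The libraries of the groups did not overlap for any of the 5, with rt-PA+Acu lower each time, a separation seen for 26.7% of all genes. Bax (-0.35, 95% interval -0.84 to 0.13), Bcl2l1 (-0.23, -0.53 to 0.07), Bcl2l2 (0.11, -0.20 to 0.41), Bcl2l11 (-0.23, -0.72 to 0.25) and Bbc3 (-0.25, -0.92 to 0.42) did not pass. Summed neutrophil markers (24.4 to 31.3 CPM beside 122 to 163 CPM in rt-PA), monocyte and macrophage markers (139 to 143 beside 485 to 729 CPM) and endothelial markers (177 to 223 beside 311 to 457 CPM) were lower too. Of the 8 endothelial genes, 6 fell and 1 (Slco1c1) rose, with a log2 fold change of 2.58 (edgeR adjusted p = 0.00321). Astrocyte markers were higher, with sums of 7031 to 8370 CPM beside 5291 to 6306 CPM and 9 of 10 genes that rose, and 6 of 10 neuron markers rose. The part of these cells in the falls of the members was not tested.

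These calls depended on libraries of both groups. In rt-PA+Acu replicate 3 the levels of Bid, Pmaip1, Mcl1, Bax and Bak1 were the highest of the group, and the coefficient of variation over the group was 64.6% for Bid and 54.6% for Pmaip1, beside 24.3% and 21.9% in Sham. Without that library 6 members fell, while calls over all genes rose from 4522 of 12999 to 5417 of 13184, with log2 fold changes of -2.29 for Bid, -2.04 for Pmaip1 and -0.59 for Bax (edgeR adjusted p = 0.0231). The count of 5 was 1 without rt-PA replicate 1 or without rt-PA+Acu replicate 2, 2 without rt-PA+Acu replicate 1 and 3 without rt-PA replicate 3. Calls over all genes fell in the same fits, to 2694 of 13148, 2496 of 13227, 2850 of 13227 and 2958 of 13189. The log2 fold changes stayed at or beyond -1.31 for Bid, -1.24 for Pmaip1, -0.69 for Bak1 and -0.61 for Mcl1. Bcl2a1 passed in each of these fits (log2 fold change -3.43 to -2.90), and the adjusted p of Mcl1, Bak1, Bid and Pmaip1 did not exceed 0.0741 in any of them.

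**Figure D3:**
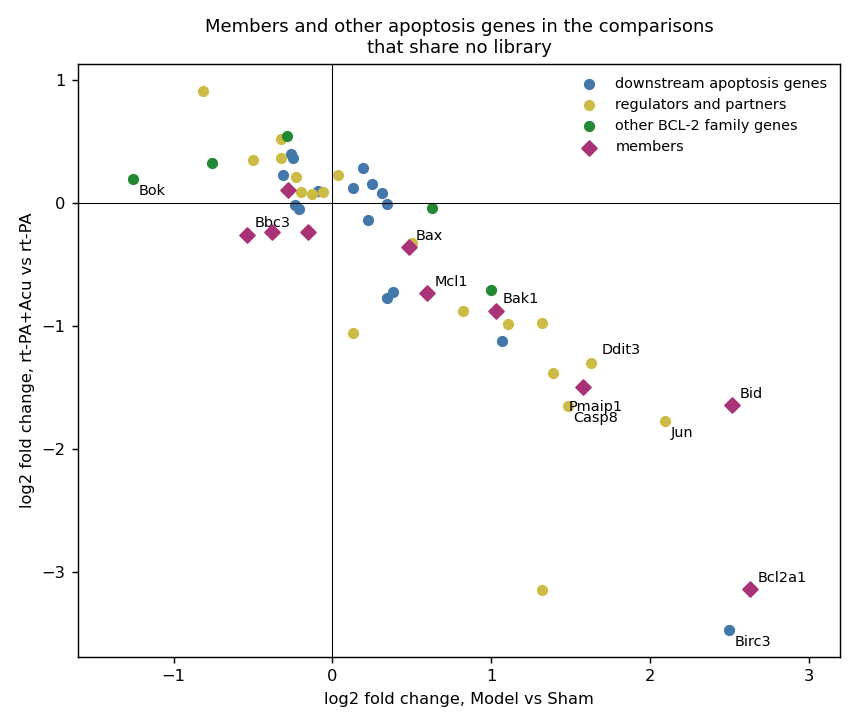
Log2 fold change in Model vs Sham (horizontal) against that in rt-PA+Acu vs rt-PA (vertical), which have no library in common, for the members (diamonds) and the other apoptosis genes (circles). Bcl2a1, Bid, Pmaip1, Bak1 and Mcl1 lie at the lower right, higher with the clot and lower with acupuncture, beside Birc3, Jun, Casp8 and Ddit3.

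Because Model vs Sham and rt-PA+Acu vs rt-PA have no library in common, their directions can be set side by side. Of the members, 5 of 5 that rose with the clot fell with acupuncture, as did 1821 of 3507 (51.9%) of all genes that rose. Opposite signs, whether or not a test was passed, were found for 7 of 10 members and for 81.6% of 12753 genes. Opposite signs were therefore no more frequent among the members than among all genes.

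The last comparison asked how far the treated rats were from Sham. Of the 10 members, 0 passed the adjusted p in rt-PA+Acu against Sham in edgeR's quasi-likelihood test, where 5.10% of 12775 genes did. At an unadjusted p under 0.05 there were 3 members (Bcl2l1, Bcl2l2 and Bid) and 23.2% of all genes, and DESeq2 called 2 members and 10.4% of all genes. The 2 were Bcl2l1, with a log2 fold change of -0.43 (95% interval -0.70 to -0.15, edgeR adjusted p = 0.0844, DESeq2 adjusted p = 0.0364), and Bcl2l2, with -0.41 (95% interval -0.67 to -0.14, edgeR adjusted p = 0.0829, DESeq2 adjusted p = 0.0186). Their rt-PA+Acu libraries all lay below those of Sham, as was the case for 15.7% of all genes. These had the smallest p of the members in this comparison. Endothelial markers also lay lower, with a sum of 177 to 223 CPM beside 359 to 435 CPM in Sham, while neuron markers overlapped, and the part of either in these values was not tested.

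For the 5 members that rose with the clot, the interval of the difference from Sham is given here, while Bcl2l2, which fell with the clot, lay as far below Sham as stated before. The log2 fold change was 0.07 for Mcl1 (95% interval -0.32 to 0.45), 0.23 for Bak1 (-0.32 to 0.79) and -0.05 for Pmaip1 (-0.87 to 0.78). Bcl2a1 (0.65, from -0.74 to 2.04) and Bid (1.05, from 0.03 to 2.07, edgeR adjusted p = 0.204) had intervals that reach beyond a 4-fold change. The value of Bid rested on rt-PA+Acu replicate 3 and was 0.38 without it. Summed over Bid, Bcl2l11, Bbc3 and Pmaip1, the level was 30.6 to 36.8 CPM in Sham, 78.9 to 99.5 CPM in Model, 78.8 to 107 CPM in rt-PA, and 26.0, 30.9 and 55.9 CPM in rt-PA+Acu. Of the rt-PA+Acu libraries, replicate 1 lay below all Sham libraries, replicate 2 within their range and replicate 3 between Sham and Model.

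Pairs of partners were also compared within each library, which takes the scaling of the library out of the comparison. The value was the log2 CPM of the effector minus that of its inhibitor, and only its differences between groups are compared, since the levels are not per length. For Bax to Bcl2l1 it was -2.49, -2.74 and -2.38 in Sham, -1.78, -1.88 and -2.02 in Model, -1.46, -2.05 and -1.93 in rt-PA, and -2.20, -2.34 and -1.36 in rt-PA+Acu. Model lay above Sham by 0.64 without overlap, and rt-PA+Acu lay above Sham by 0.57 without overlap, with replicate 3 the highest of all 12 libraries. Both differences had the smallest p that 3 against 3 libraries can give (exact two-sided permutation p = 0.1). Without rt-PA+Acu replicate 3 the difference from Sham was 0.27 (exact permutation p = 0.2). With acupuncture added to rt-PA the difference was -0.15 (exact permutation p = 0.6), and its sign turned without rt-PA replicate 1 or rt-PA+Acu replicate 2, while without rt-PA+Acu replicate 3 it was -0.46 (exact permutation p = 0.2).

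For Bak1 to Mcl1 the value was -2.71, -2.44 and -2.87 in Sham, -2.29, -2.31 and -2.14 in Model, -2.35, -2.41 and -2.35 in rt-PA, and -2.35, -2.71 and -2.50 in rt-PA+Acu. Although both genes rose with the clot, Bak1 rose more, and Model lay above Sham by 0.43 without overlap (exact permutation p = 0.1). It then lay 0.12 below Model in rt-PA, again without overlap (exact permutation p = 0.1), and the step to rt-PA+Acu was -0.15 (exact permutation p = 0.4). Without Model replicate 3 these differences were 0.38 for Model against Sham (exact permutation p = 0.2) and -0.07 for rt-PA against Model (exact permutation p = 0.1). In this design of 3 against 3 libraries no ratio could reach a p under 0.05.

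**Figure D4:**
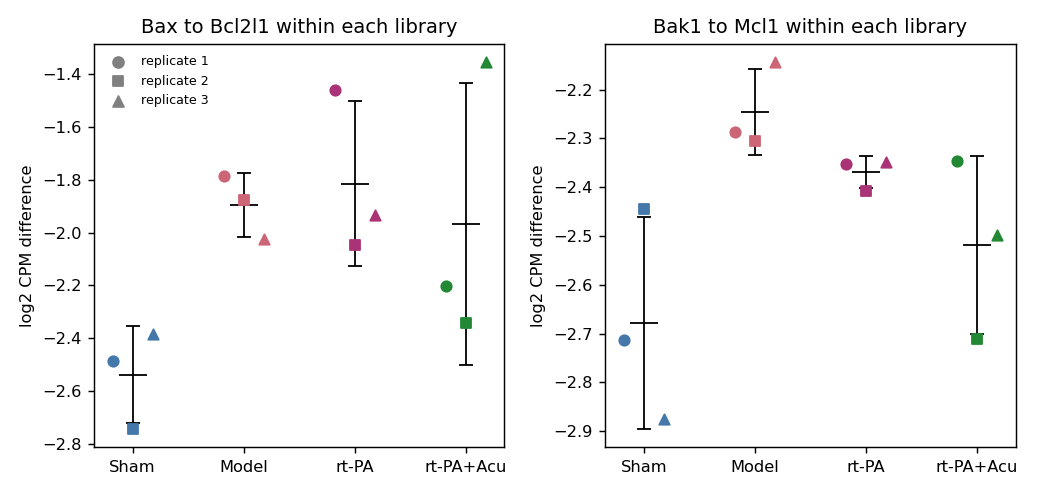
Within-library difference of log2 CPM for Bax to Bcl2l1 (left) and Bak1 to Mcl1 (right) by group, with the symbol shape for the replicate number and bars for the mean and SD of 3 libraries (the vertical axes do not start at 0). The Sham libraries lie lowest for Bax to Bcl2l1, and rt-PA+Acu replicate 3 is the highest library there at -1.36.

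Genes around the family in the same pathway were read from lists of further BCL-2 family genes, of genes downstream of the mitochondrion, and of regulators and partners. Of the further family genes 5 of 10 were tested in Model vs Sham, where 1 rose (Bcl2l13, log2 fold change 1.00) and 2 fell (Bok, -1.26, and Bad, -0.76). Bok encodes an effector-like protein, Bad a BH3-only protein and Bcl2l13 a mitochondrial protein known as a mitophagy receptor (Bad and Bcl2l13 were chosen after their values were seen). Bok had a mean of 22.3 ± 4.47 CPM in Sham, 9.31 ± 4.17 CPM in Model, 8.01 ± 1.49 CPM in rt-PA and 9.20 ± 0.162 CPM in rt-PA+Acu (SD, n = 3). Its level with acupuncture stayed under all Sham libraries, with a log2 fold change of 0.20 against rt-PA (edgeR adjusted p = 0.460) and of -1.28 against Sham (edgeR adjusted p = 0.00856).

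Downstream of the mitochondrion, 5 of 18 genes rose and 1 fell in Model, and 4 fell and 1 rose in rt-PA+Acu vs rt-PA. Set beside the 27.3% of all genes that rose in Model and the 17.7% that fell with acupuncture, these counts at the adjusted p alone are near the background. With a log2 fold change over 1 as well, 4 of the 18 were higher in Model, beside 9.43% of all genes. Those that fell with a log2 fold change below -1 with acupuncture were 3 of the 18, beside 8.16% of all genes. Birc3 encodes cIAP2, an inhibitor of cell death and, like Bcl2a1, a known NF-kappaB target. Its mean level was 1.13 CPM in Sham, 6.43 CPM in Model, 12.6 CPM in rt-PA and 1.10 CPM in rt-PA+Acu, and its log2 fold changes in Model and with acupuncture were 2.50 and -3.47 (edgeR adjusted p = 0.0024 and 0.00603). The median log2 fold change over the 18 genes was 0.24 in Model and -0.01 with acupuncture.

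Among the regulators and partners, 9 of 19 rose and 3 fell in Model, where 27.3% of all genes rose and 26.6% fell. With acupuncture added to rt-PA, 7 of the 19 fell and 2 rose, while the background shares were 17.7% lower and 17.0% higher. Jun, an AP-1 subunit of neuronal stress signalling, rose by 2.10 on the log2 scale and fell by 1.77 with acupuncture (edgeR adjusted p = 3.05e-05 and 0.00401). The log2 fold changes of Ddit3, which encodes the endoplasmic reticulum stress factor CHOP, were 1.63 and -1.30 (edgeR adjusted p = 0.000191 and 0.007). Casp8, whose product cleaves BID, had 1.48 and -1.64 (edgeR adjusted p = 0.0230 and 0.0273). In rt-PA vs Model none of the 3 lists held a gene past the adjusted p in edgeR's test. In rt-PA+Acu vs Sham, 1 of 5 further family genes, 1 of 18 downstream genes and 0 of 18 regulators fell, and no gene of these lists rose. Of all 12775 genes tested there, 5.10% passed in either direction, so that few calls in these lists are near the background.

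Since Bcl2a1 is known from leukocytes, markers of blood cells were read beside it. The summed level of the 10 neutrophil markers was 11.8 to 18.2 CPM in Sham, 89.9 to 126 CPM in Model, 122 to 163 CPM in rt-PA and 24.4 to 31.3 CPM in rt-PA+Acu. Monocyte and macrophage markers summed to 123 to 188 CPM, 302 to 392 CPM, 485 to 729 CPM and 139 to 143 CPM in the same order. Bcl2a1 was likewise low in Sham and rt-PA+Acu and highest in rt-PA, and the part of these cells in its change was not tested. In Model most of the neutrophil sum came from Mmp9, which other cells also make (group means of 5.22 CPM in Sham and 89.1 CPM in Model). Of the defining neutrophil granule genes, Ltf had 0 counts in all 12 libraries, and Mmp8 was at most 0.524 CPM in Sham and 1.32 CPM in Model, reached 2.71 CPM in rt-PA and had 0 counts in rt-PA+Acu. S100a8 was at 0.764 to 1.85 CPM in Sham and 0.382 to 3.30 CPM in Model, so that it overlapped where Bcl2a1 did not. Cxcr2, the neutrophil chemokine receptor, had group means of 0.528 CPM in Sham, 1.92 CPM in Model, 7.86 CPM in rt-PA and 0.185 CPM in rt-PA+Acu. Of the list, 2 of 6 tested genes rose in Model, and 6 of 7 fell in rt-PA+Acu vs rt-PA. For monocytes and macrophages 5 of 9 rose in Model and 8 of 9 fell with acupuncture, Cd14 with log2 fold changes of 6.80 and -4.49. Much of the rise of their sum in Model came from Cd14 and Lgals3. Cd14 had group means of 0.826 CPM in Sham and 91.2 CPM in Model, and Lgals3 1.27 and 51.9 CPM. The sum therefore leans on few genes and is no count of cells.

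**Figure D5:**
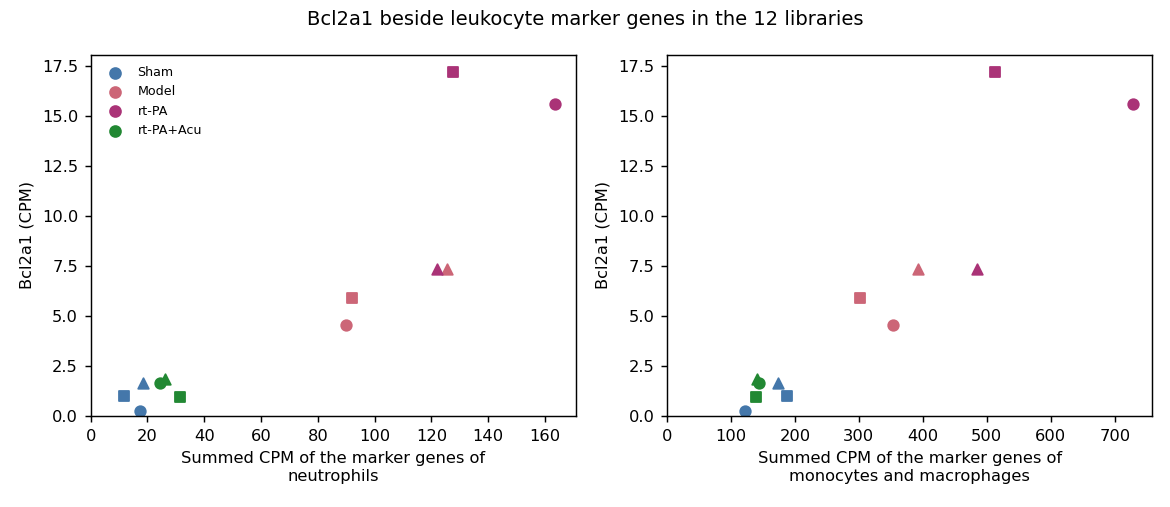
Bcl2a1 (vertical, CPM) against the summed CPM of 10 neutrophil markers (left) and 10 monocyte and macrophage markers (right) in the 12 libraries, coloured by group, with circles, squares and triangles for replicates 1, 2 and 3. The 6 Sham and rt-PA+Acu libraries lie at the lower left below 2 CPM of Bcl2a1, and rt-PA replicates 1 and 2 lie highest at 15.6 and 17.2 CPM.

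Neuron markers ran the other way. Their sum was 7553 to 8355 CPM in Sham, 6305 to 6449 CPM in Model, 5050 to 6254 CPM in rt-PA and 6194 to 8998 CPM in rt-PA+Acu, and 6 of 10 fell and 1 rose in Model. Of the oligodendrocyte, astrocyte and microglia markers, 8, 8 and 6 of 10 fell in Model. Bcl2l2 followed this order from Sham to rt-PA, and whether its fall follows the share of neuronal RNA was not tested. In rt-PA+Acu replicate 3, where Bid, Pmaip1, Mcl1, Bax and Bak1 were highest, the neuron sum and Bcl2l2 (199 CPM) were the lowest of the group. Its neutrophil and monocyte sums of 26.0 and 141 CPM lay between those of the other libraries of the group. Genes within the monocyte and macrophage sum differed in direction. Cd14 and Lgals3 were at their highest of the group in this library, at 9.93 and 28.4 CPM (group means 4.55 and 14.1 CPM). Vcan, chosen after its values were seen, was at its lowest of the group there, at 60.1 CPM (group mean 84.5 CPM). The part of these cells in the levels of the members was not tested. The Bcl2a1 level of this library, 1.87 CPM, was close to the 1.69 CPM of replicate 1.

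Likeness of pattern was measured as Pearson's r of log2 CPM over the 12 libraries among 13296 genes, as a description, since all these genes share the same libraries and the same large differences between groups. The genes most like Bcl2a1 were Llph (0.986), Litaf (0.975) and Aspm (0.969). Those most like Bid were Tuba1c (0.989), Metap2 (0.988) and Mgat2 (0.987), and those most like Pmaip1 were Orc2 (0.986), Rer1 (0.985) and Zfp646 (0.983). None of the 9 was a member or on a list of apoptosis genes.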

How the data were processed

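Paired-end reads (150 bases) were aligned by the authors with STAR 2.7.10a against assembly mRatBN7.2 of the rat, and they counted uniquely mapped read pairs on Ensembl genes with Salmon 1.9.0. The submitters' processing notes also name featureCounts 2.0.1 without its role. The deposited table gives unnormalized counts, all whole numbers, for each gene symbol in each library. How estimates of Salmon became whole numbers, whether the molecular identifiers of the adapters were used and whether counting used the strand of the libraries are not given in the sources used here, and the limit of 3 counts covers counting error alone. Total counts were 11678450 to 13616935, and 0 columns were left out. Groups came from the deposited labels.

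The 6 libraries of a comparison were fitted by themselves in R 4.3.3 with edgeR 4.0.16 (filterByExpr, TMM factors from 0.9476 to 1.077, quasi-likelihood test) and Benjamini-Hochberg adjustment over all genes tested. Genes that also had an absolute log2 fold change over 1 passed the thresholds of the study's methods. Standard errors are the absolute log2 fold change over the root of the F statistic. For ratios, 2 was the prior count of log2 CPM, with an exact two-sided permutation test. Alternatives were DESeq2 1.42.0, its size factors (RLE), library size alone, a joint fit of the 12 libraries, the replicate number as a block, a minimum of 1 count in all or of 10 counts per library as filters, a prior count of 0.5 for ratios, and leaving out each library. On simulated data with 200 changed genes, the fit for Model vs Sham recovered 76 of 100 genes changed 2-fold and 97 of 100 changed 4-fold over 12793 genes, and the one for acupuncture added to rt-PA recovered 60 and 88 of 100 over 12910 genes. For rt-PA vs Model it was 65 of 98 and 94 of 99 over 12834 genes. False calls were 14, 15 and 12 in this order. In the data 6951 and 4522 genes passed in the first 2 of these comparisons, far more than 200, so these rates need not hold there.

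The members and all lists were chosen with earlier results of these data known. All members are named. Of each other list at most 3 genes are named, those with the largest change in Model vs Sham among the genes past both thresholds there or with acupuncture added to rt-PA, together with marker genes at or near 0 and the 3 genes most like each of the 3 members with the largest change. The summed lists held 10 markers each of neurons, neutrophils, monocytes and macrophages, microglia, astrocytes, oligodendrocytes and endothelial cells. Of those not described with the results, the sums in Sham and Model were 662 to 823 and 547 to 663 CPM for microglia, 6667 to 7735 and 4856 to 6757 CPM for astrocytes, and 359 to 435 and 253 to 450 CPM for the 8 endothelial genes in the table. Promoters came from a RefSeq table of assembly GRCr8, which is not the build of the counts, so no coordinate was joined with a count. Plots were drawn with matplotlib 3.10.9. Some genes of the lists that the rule would name are not reported here and are left out of the plots.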

Additional observations from a re-analysis of the deposited data

How the results depend on the processing

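The counts of members past the adjusted p and past both thresholds were 5 to 7 and 3 to 4 in Model vs Sham when 1 library was left out, and 0 and 0 in rt-PA vs Model. When rt-PA+Acu was compared with rt-PA they were 1 to 6 and 1 to 4, and with Sham 0 in all such fits but 2 with DESeq2, which called 1386 genes there and 164 in rt-PA vs Model. Calls over all genes without 1 library were 5825 to 7528 in Model vs Sham and 0 to 3 in rt-PA vs Model. They were 2496 to 5417 for rt-PA+Acu against rt-PA and 112 to 856 against Sham. The replicate numbers did not pair the libraries, since deviations of libraries with the same number correlated from -0.123 to 0.153 and no comparison had 3 correlations over 0.1. With the replicate number as a block, 7 members passed in Model vs Sham (Bax with an edgeR adjusted p of 0.0295), 0 in rt-PA vs Model, and 5 and 0 in the comparisons of rt-PA+Acu with rt-PA and Sham, the last with 289 genes in place of 651. The Bax to Bcl2l1 difference, when 1 library was left out, was 0.54 to 0.72 for Model vs Sham, -0.10 to 0.20 for rt-PA vs Model, and -0.46 to 0.04 and 0.27 to 0.76 for rt-PA+Acu against rt-PA and Sham, lowest without rt-PA+Acu replicate 3 in both. Its sign turned without rt-PA replicate 1 (-0.0957 for rt-PA vs Model, 0.0245 for rt-PA+Acu against rt-PA) and without rt-PA+Acu replicate 2 (0.0356 for the latter). The Bak1 to Mcl1 difference kept its sign, with ranges of 0.33 to 0.55, -0.15 to -0.07, -0.23 to -0.05 and 0.06 to 0.28 in the same order.

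Log2 fold changes that had not passed the test turned sign in 2 comparisons. In rt-PA vs Model, leaving out 1 library gave -0.144 to 0.0742 for Bcl2l1 (0.0521 without rt-PA replicate 1, and 0.0160 with library size alone), -0.0529 to 0.125 for Bax (-0.0413 without rt-PA replicate 1), -0.00331 to 0.129 for Bak1 and -0.326 to 0.0380 for Pmaip1 (0.0235 without Model replicate 1). For rt-PA+Acu against Sham it gave -0.602 to 0.215 for Pmaip1 (0.0127 with library size alone), -0.518 to 0.0220 for Bcl2l11, and, lowest without rt-PA+Acu replicate 3 each time, -0.165 to 0.18 for Mcl1, -0.0829 to 0.343 for Bax and -0.0124 to 0.417 for Bak1. The causes were not tested. Of the other fold changes of members under alternatives, 476 kept direction and side of the threshold, 8 newly passed and 16 no longer passed. Scaling by library size alone moved the median of all genes by 0.0699, 0.0491, -0.0975 and 0.0335. A minimum of 10 counts per library removed Bcl2a1 from the comparisons with Sham and gave no value there. Bcl2a1 in Sham (3 to 19 counts) and Bbc3 (23 to 57 counts) had the fewest counts.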
